A study of Mus musculus with 10 samples.

Results

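The mitochondrial carrier family SLC25 was followed in whole liver of germ-free C57BL/6 mice, WT by genotype, that were given microbiota-derived extracellular vesicles (GF+MEV, labelled EV treated, n = 5 mice) or PBS alone (GF+PBS, n = 5 mice). MEV were vesicles isolated from gut content or faeces of control mice, and they were given by mouth at 80 μg per dose, 2 doses per week for 3 weeks. Members were all protein-coding genes of GENCODE release vM21 (GRCm38) whose symbol starts with *Slc25a*, which gave 47 genes, and 40 of them had a row among the 12148 genes of the count table. *Slc25a2*, *Slc25a18*, *Slc25a31*, *Slc25a35*, *Slc25a41*, *Slc25a43* and *Slc25a54* had no row and were not analysed here. The count minimum behind the table was set by the authors, and the columns over which it was taken were not settled here, so a gene without a row need not be silent in these livers. All 40 members with a row passed the minimum of 20 counts over the 10 livers. Members were taken by symbol and not by a measured value, though with earlier results of these data known. The comparison asked whether RNA of these carriers differed between germ-free livers exposed to gut vesicles and those exposed to the vehicle. Mice of both groups lacked a gut microbiota of their own, so neither group stands for a colonised animal. Age and sex of the germ-free mice are not given in the sources used here.

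SLC25 proteins sit mainly in the inner mitochondrial membrane, where they exchange metabolites, nucleotides, cofactors and ions between the cytosol and the matrix. In liver they join pathways that are split across that membrane, among them the urea cycle, gluconeogenesis, fatty acid oxidation and the shuttling of reducing equivalents. Most carriers share a fold of repeated membrane helices and differ in what they carry, so members are described here by transported substrate.

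Each library came from 1 mouse and held between 15746119 and 20523649 counts on genes. Levels are given as CPM, a library's counts scaled to a common total with edgeR's TMM factors, and the groups were compared with edgeR's quasi-likelihood test, adjusted over all 12147 genes tested. A gene was called at an adjusted p under 0.05. GF+MEV replicate 2 stood apart, with a TMM factor of 0.890 against 0.978 to 1.04 elsewhere and 8158 CPM of *Lars2* against 101 to 304 CPM. Within GF+PBS, the pairs of livers most alike were replicates 1 and 3 (chi-square per gene 6.33) and replicates 4 and 5 (7.17), beside 8.54 to 24.9 for the other pairs. Without GF+MEV replicate 2, and with the alike GF+PBS livers summed, the same 7 members were called.

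Of the 40 members, 7 were called higher in GF+MEV livers (17.5%), beside 4.12% of all genes tested (7.64% counting both directions). No member was called lower, beside 3.52% of all genes. DESeq2 and limma-voom also called 0 members lower, and none of the members with a lower estimate had an unadjusted edgeR p under 0.05. In either direction 10 of the 40 members were under that unadjusted p, beside 2572 of the 12147 genes tested. *Slc25a25*, a calcium-sensitive ATP-Mg/phosphate carrier, rose 4.56-fold and moved most. *Slc25a51* (NAD), *Slc25a32* (folate and FAD), *Slc25a47* (substrate not settled), *Slc25a33* (pyrimidine nucleotides), *Slc25a22* (glutamate) and *Slc25a15* (ornithine and citrulline) rose by 1.34-fold to 2.04-fold. In the same 7 genes every GF+MEV liver lay above every GF+PBS liver, and in none did every GF+MEV liver lie below, beside 3.94% and 3.45% of all genes. The median log2 fold change over the 40 members was 0.063, and over all genes tested it was -0.0037.

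**Figure D1:**
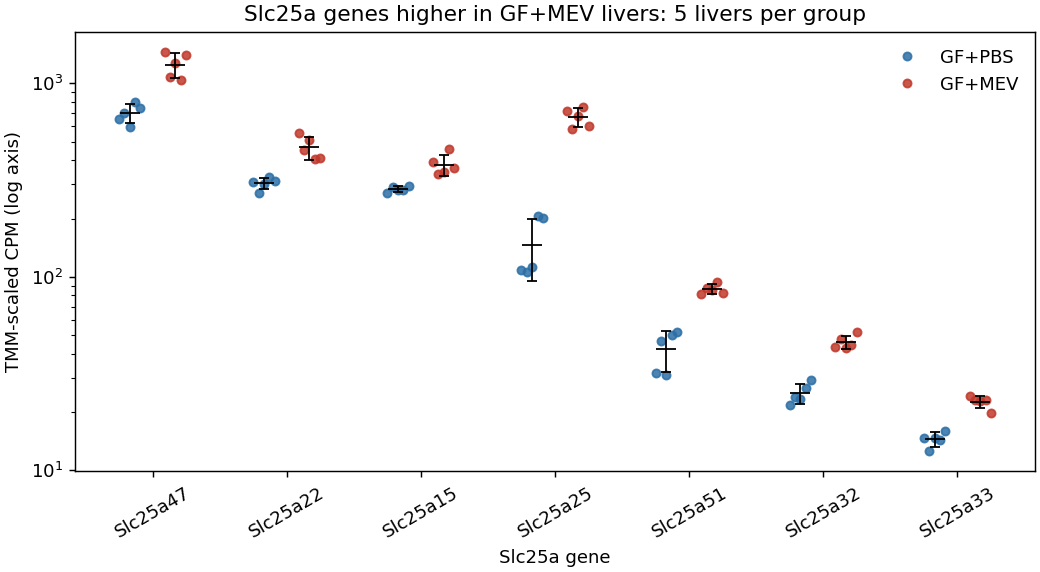
TMM-scaled CPM (log axis) of the 7 called *Slc25a* genes in each liver, ordered by level in GF+PBS, with 5 GF+PBS livers in blue and 5 GF+MEV livers in red. Bars are the mean and SD, and in every gene the lowest GF+MEV liver is above the highest GF+PBS liver, with the widest gap in *Slc25a25* (584 against 206 CPM).

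Start-site sequences are shown for 4 of the called members with an entry in RefSeq's promoter table (GRCm38.p6), *Slc25a25*, *Slc25a33* and *Slc25a15* because their windows hold a searched motif and *Slc25a47* as a window without one. Of the 40 members 32 had an entry, and of the 7 called members 5. *Slc25a51* and *Slc25a32* had none. The 3 windows of *Slc25a22*, the other called member with an entry, held none of the motifs and are not printed. Each line below gives bases before an annotated start, 5′ to 3′ on the gene's strand. For *Slc25a25* it is chr2:32424067-32424226 on the minus strand, upstream of an internal start of the gene. For *Slc25a33* it is chr4:149774278-149774427 on the minus strand, which ends 11 bases before the start. For *Slc25a15* it is chr8:22398278-22398437 on the minus strand, also upstream of an internal start. For *Slc25a47* it is chr12:108850969-108851128 on the plus strand, and this start too is internal to the annotated gene. None of these stretches holds an annotated exon in GENCODE vM21. Capitals mark the letters of the cAMP response element TGACGTCA or its core TGACG, on either strand, and of the E-box CACGTG.
Slc25a25: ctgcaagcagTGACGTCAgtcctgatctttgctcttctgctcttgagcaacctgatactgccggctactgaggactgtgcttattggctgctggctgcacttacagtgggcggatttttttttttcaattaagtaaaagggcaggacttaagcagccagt
Slc25a33: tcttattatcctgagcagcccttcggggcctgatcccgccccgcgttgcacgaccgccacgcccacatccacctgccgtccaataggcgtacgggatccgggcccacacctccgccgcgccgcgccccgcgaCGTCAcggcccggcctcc
Slc25a15: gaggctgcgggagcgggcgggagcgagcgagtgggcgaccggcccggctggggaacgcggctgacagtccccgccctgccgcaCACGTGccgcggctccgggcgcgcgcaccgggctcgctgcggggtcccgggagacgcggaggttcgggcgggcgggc
Slc25a47: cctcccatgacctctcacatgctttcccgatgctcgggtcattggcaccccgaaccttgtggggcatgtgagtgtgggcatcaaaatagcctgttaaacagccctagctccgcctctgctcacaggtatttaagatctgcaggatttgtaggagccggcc

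The motifs were searched on both strands in windows from 250 bases before to 50 bases after each start. The table held 32851 windows of 27025 genes, and a gene was counted where any of its windows held the motif. The full element TGACGTCA was in 1.79% of windows, in 2.03% of genes and in 2 of the 32 members. One was *Slc25a25*, in 1 of its 3 windows and with its first base 150 bases before the start, and the other was *Slc25a36*, which was not called. The core TGACG, which the full element contains, was in 20.8% of windows, 23% of genes and 12 of the 32 members, with *Slc25a25* and *Slc25a33* among the called ones. The E-box was in 7.15% of windows, 8.09% of genes and 6 members, of which *Slc25a33* and *Slc25a15* were called. In *Slc25a15* it was in 1 of 2 windows, that of the internal start. In *Slc25a33* it lies nearer to the start than the stretch printed above, and the window of *Slc25a47* held none of the searched motifs. The full glucocorticoid response element was in 0.00913% of windows, 0.0111% of genes and 0 members, and its piece TGTTCT was in 19% of windows, 21.3% of genes, 2 members and 0 called members. These are matches of letters and show nothing about binding.

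Among carriers of adenine nucleotides and phosphate, which supply the matrix with ADP and phosphate and adjust its pool of adenine nucleotides, 1 of 6 tested members was called. *Slc25a25* (ENSMUSG00000026819, chromosome 2 from 32414487 to 32451445 on GRCm38) was measured at 719, 584, 679, 759 and 601 CPM in GF+MEV replicates 1 to 5. In GF+PBS replicates 1 to 5 it was 109, 106, 112, 206 and 201 CPM. Replicates 4 and 5 of GF+PBS lay above the other 3 livers of that group by at least 1.8-fold, and still far under the GF+MEV livers. Means were 668 ± 74.98 CPM in GF+MEV and 147 ± 52.04 CPM in GF+PBS (SD, n = 5 each; log2 fold change 2.19, standard error (SE) 0.23, edgeR adjusted p = 3.3e-06). *Naif1*, on the other strand, shares part of its exons. The strand setting of the counting is not given in the sources used here, and *Naif1* itself was at 3.70 and 3.48 CPM and was not called.

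The other calcium-sensitive ATP-Mg/phosphate carriers did not pass the test. *Slc25a23* was at 227 ± 13.5 CPM in GF+MEV and 237 ± 21.2 CPM in GF+PBS (SD, n = 5 each). *Slc25a24* was low, at 1.46 ± 0.40 and 0.99 ± 0.24 CPM, and its estimate of 0.55 on the log2 scale had a SE of 0.24. The ADP/ATP exchangers *Slc25a5* (ANT2) and *Slc25a4* (ANT1) had log2 fold changes of -0.052 and -0.057, and the phosphate carrier *Slc25a3* had one of 0.020. The annotation also holds a pseudogene copy of *Slc25a5*, with which reads could be shared. *Slc25a4* is the main ADP/ATP carrier of muscle, and the summed level of the 5 tested skeletal muscle markers ran from 248 to 342 CPM in GF+MEV and from 209 to 765 CPM in GF+PBS. None of the 5 was called by edgeR, DESeq2 or limma-voom, and 2 were lower at an unadjusted p under 0.05. The part of muscle RNA in the *Slc25a4* values was not tested.

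Carriers of citrate and dicarboxylates serve fatty acid synthesis, gluconeogenesis and the malate-aspartate shuttle, and 0 of 4 were called by edgeR, with 0 at an unadjusted p under 0.05 and 0 by DESeq2 or limma-voom. Their log2 fold changes ran from -0.12 for the 2-oxoglutarate/malate carrier *Slc25a11* to 0.087 for the oxodicarboxylate carrier *Slc25a21*. The citrate carrier *Slc25a1* was at 322 ± 17.3 CPM in GF+MEV and 345 ± 19.7 CPM in GF+PBS, and the dicarboxylate carrier *Slc25a10* at 288 ± 22.9 and 292 ± 24.5 CPM (SD, n = 5 each). The groups overlapped in all 4 genes.

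Among amino acid carriers, 2 of 7 tested members were called. *Slc25a22* (ENSMUSG00000019082, chromosome 7 from 141429744 to 141437892), which encodes the glutamate carrier GC1, was at 552, 450, 509, 408 and 413 CPM in GF+MEV replicates 1 to 5. The GF+PBS livers had 308, 271, 303, 326 and 313 CPM. The groups did not overlap, and the GF+MEV livers were spread more widely. The means of 466 ± 62.7 and 304 ± 20.4 CPM (SD, n = 5 each) differed by 0.62 on the log2 scale (SE 0.10, edgeR adjusted p = 0.00035).

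*Slc25a15* (ENSMUSG00000031482, chromosome 8 from 22375551 to 22398597) encodes ORC1, which brings ornithine into the matrix and lets citrulline out during the urea cycle. It was at 393, 338, 347, 458 and 364 CPM in GF+MEV and at 270, 291, 283, 282 and 296 CPM in GF+PBS replicates 1 to 5. The GF+PBS livers were within a narrow band, and the lowest GF+MEV liver was above all of them. The mean rose from 284 ± 10.1 to 380 ± 48.4 CPM (SD, n = 5 each), or by 0.42 on the log2 scale (SE 0.08, edgeR adjusted p = 0.0034). This was the smallest change and the highest adjusted p among the called members.

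The remaining amino acid carriers were not called. The basic amino acid carrier *Slc25a29* came closest of all members that were not called, at 3.72 ± 0.77 against 2.82 ± 0.23 CPM (SD, n = 5 each, log2 fold change 0.40, edgeR adjusted p = 0.159). The aspartate/glutamate carriers *Slc25a13* (citrin) and *Slc25a12* (aralar), which move aspartate out of the matrix, both had log2 fold changes near 0.06 and overlapped between the groups. The glycine carrier *Slc25a38* had -0.024. The branched-chain amino acid carrier *Slc25a44* had -0.099 and varied most of the amino acid carriers in GF+PBS relative to its mean (CV 20.4%), from 48.9 to 82.7 CPM.

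Of 8 carriers of acylcarnitine, coenzyme A and other cofactors, 2 were called. *Slc25a51* (ENSMUSG00000045973, chromosome 4 from 45395923 to 45408766), which carries NAD into mitochondria, was at 81.8, 86.9, 85.7, 94.2 and 82.5 CPM in GF+MEV replicates 1 to 5. GF+PBS replicates 1 to 5 had 31.9, 46.4, 31.0, 50.03 and 51.6 CPM. Replicates 1 and 3 were the low livers of the GF+PBS group, and no liver of that group reached the GF+MEV range. Its change was 1.03 on the log2 scale (SE 0.16, edgeR adjusted p = 0.00014), from means of 86.2 ± 4.95 and 42.2 ± 9.97 CPM (SD, n = 5 each). The annotation places the microRNA gene Gm25692 within its exons on the same strand.

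*Slc25a32* (ENSMUSG00000022299, chromosome 15 from 39091231 to 39112716), the carrier of folate and FAD, was at 43.1, 47.5, 42.9, 44.3 and 51.6 CPM in GF+MEV. In GF+PBS it was at 21.8, 24.0, 23.4, 26.5 and 29.4 CPM. The lowest GF+MEV liver was thus well above the highest GF+PBS liver. The change was 0.87 on the log2 scale (SE 0.09, edgeR adjusted p = 9.6e-06), with means of 45.9 ± 3.67 and 25.0 ± 2.95 CPM (SD, n = 5 each).

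In the same substrate group, *Slc25a26*, which carries S-adenosylmethionine, had a log2 fold change of 0.28 with overlap between the groups (edgeR adjusted p = 0.194). The carnitine/acylcarnitine carrier *Slc25a20*, through which long-chain fatty acids reach β-oxidation, was at 130 ± 8.01 and 127 ± 4.37 CPM in GF+MEV and GF+PBS (SD, n = 5 each). *Slc25a16* and *Slc25a42*, linked to coenzyme A, had log2 fold changes of 0.053 and -0.079. The peroxisomal carrier *Slc25a17* had -0.086.

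Carriers of iron and glutathione feed heme synthesis, iron-sulfur cluster assembly and the redox buffer of the matrix. None of the 4 was called by edgeR, DESeq2 or limma-voom, and 0 had an unadjusted edgeR p under 0.05. The mitoferrins *Slc25a37* and *Slc25a28* had log2 fold changes of -0.18 and 0.12, and the glutathione carriers *Slc25a39* and *Slc25a40* had -0.033 and 0.073. *Slc25a39* was at 422 ± 11.9 CPM in GF+MEV and 432 ± 23.1 CPM in GF+PBS (SD, n = 5 each). *Slc25a37* is abundant in developing red cells. The summed level of 5 erythroid markers ran from 250 to 390 CPM in GF+MEV and from 276 to 470 CPM in GF+PBS, with 0 of the 5 called by edgeR, DESeq2 or limma-voom and 0 at an unadjusted p under 0.05, and its part in these values was not tested.

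Of the pair of pyrimidine nucleotide carriers, *Slc25a33* (PNC1, ENSMUSG00000028982, chromosome 4 from 149744036 to 149774277) was called and *Slc25a36* (PNC2) was not. *Slc25a33* was at 24.1, 23.1, 22.8, 23.1 and 19.8 CPM in GF+MEV and at 14.7, 12.5, 14.6, 14.3 and 15.97 CPM in GF+PBS replicates 1 to 5. GF+MEV replicate 5 was the lowest of its group and remained above all GF+PBS livers. Its change was 0.65 on the log2 scale (SE 0.07, edgeR adjusted p = 0.00014), from means of 22.6 ± 1.63 and 14.4 ± 1.25 CPM (SD, n = 5 each). Exons of *Slc25a33* overlap those of Gm13068 on the other strand. *Slc25a36* was at 2.72 ± 0.91 and 2.52 ± 0.27 CPM, and its GF+MEV livers ranged from 1.59 to 3.66 CPM.

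The carriers related to uncoupling proteins, *Slc25a14* (UCP5), *Slc25a27* (UCP4) and *Slc25a30* (KMCP1), included 0 called members by edgeR, DESeq2 or limma-voom, with 0 at an unadjusted p under 0.05. *Slc25a27* had the largest estimate of a member that was not called, 0.59 on the log2 scale with a SE of 0.32, at 1.81 ± 0.78 and 1.19 ± 0.33 CPM (SD, n = 5 each). *Slc25a30* varied most of all members among GF+MEV livers relative to its mean (CV 44.1%), from 15.4 CPM in replicate 2 to 52.9 CPM in replicate 4, around a GF+PBS range of 21.7 to 30.6 CPM. *Slc25a14* had a log2 fold change of -0.0076.

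Of 6 tested members whose substrate is not settled, 1 was called. *Slc25a47* (ENSMUSG00000048856, chromosome 12 from 108836046 to 108856815), a carrier found mostly in liver, was at 1450, 1082, 1270, 1045 and 1398 CPM in GF+MEV replicates 1 to 5. In GF+PBS it was at 655, 699, 598, 803 and 746 CPM. Each GF+MEV liver was above each GF+PBS liver. The rise was 0.84 on the log2 scale (SE 0.12, edgeR adjusted p = 0.00011), from means of 1249 ± 182 and 700 ± 79.2 CPM (SD, n = 5 each). *Slc25a34*, *Slc25a53*, *Slc25a46*, *Slc25a45* and *Slc25a48* had log2 fold changes of 0.21, 0.099, 0.085, 0.0018 and -0.13, and the groups overlapped in all 5.

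Over the 33 members that were not called, 18 estimates were above 0 and 15 below, and 28 lay within 0.2 of 0 on the log2 scale. Their median was 0.020 and the largest estimate 0.59. The 3 with an unadjusted edgeR p under 0.05, *Slc25a29*, *Slc25a26* and *Slc25a24*, all had positive estimates and mean levels under 10 CPM. The estimate of *Slc25a29* (0.40, SE 0.15) was close to that of *Slc25a15* (0.42, SE 0.08), which was measured at a far higher count and was called.

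**Figure D2:**
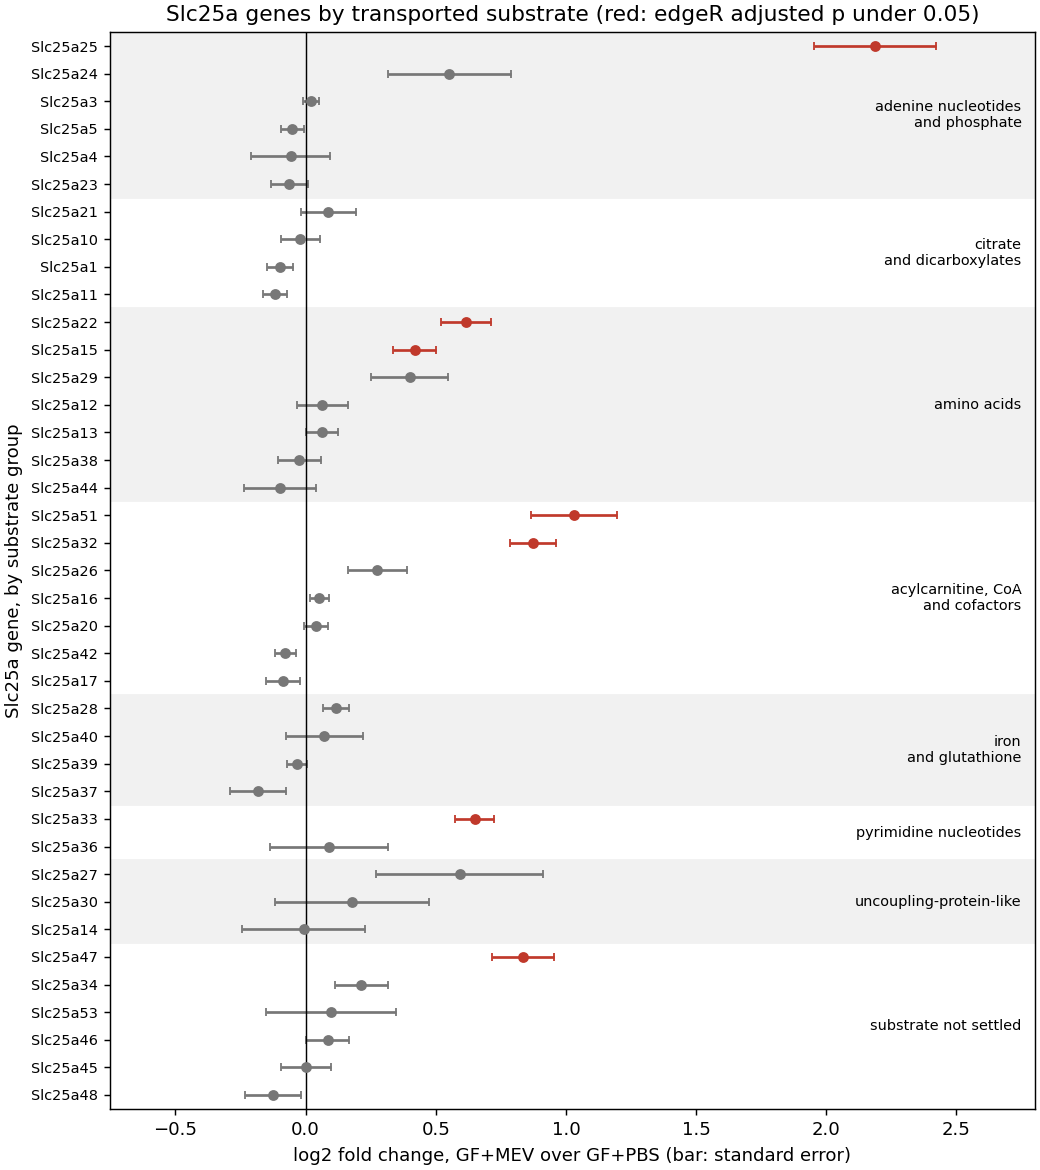
Log2 fold change of GF+MEV over GF+PBS for the *Slc25a* genes described in the text, grouped by transported substrate, with bars for the standard error and called genes in red. Called genes appear in 5 of the 8 groups, all to the right of 0, and *Slc25a25* stands far from the rest at 2.19.

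Ranks of the members by level were taken per kilobase of exon (RPKM, from TMM-scaled CPM and the union of annotated exons). On that scale *Slc25a5* led in GF+PBS livers with 292 RPKM, followed by *Slc25a47* with 234 RPKM, and in GF+MEV livers *Slc25a47* led with 418 RPKM before *Slc25a5* with 282 RPKM. *Slc25a25* moved from rank 15, at 18.7 RPKM, to rank 5, at 85.02 RPKM. The top 5 members of each group held 63.3% of the summed RPKM of the family in GF+PBS and 62.3% in GF+MEV. At the lower end *Slc25a53* had 0.186 and 0.197 RPKM in GF+PBS and GF+MEV.

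**Figure D3:**
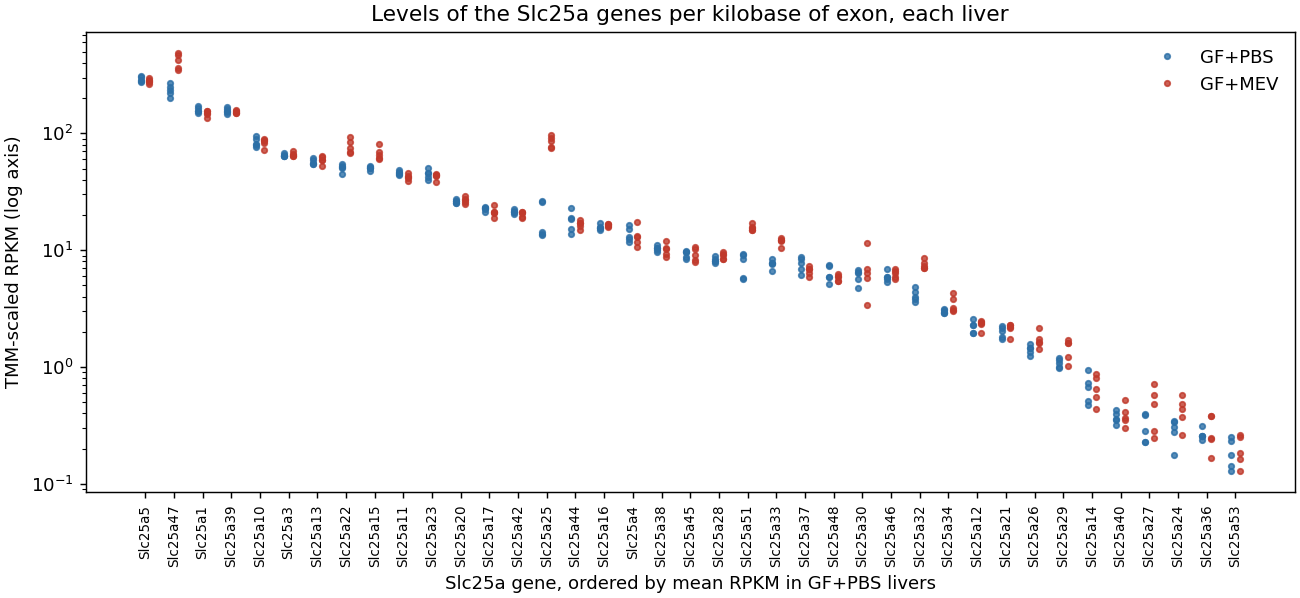
TMM-scaled RPKM (log axis) of the *Slc25a* genes described in the text, in each liver, ordered by the GF+PBS mean, with GF+PBS in blue and GF+MEV in red. *Slc25a5* has the highest mean in GF+PBS (292 RPKM) and *Slc25a47* in GF+MEV (418 RPKM), *Slc25a53* is lowest, and the red points of *Slc25a25* rise from rank 15 to the level of the top 5.

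Counts on all members together were also higher in GF+MEV livers. The sum over the family was 6512, 5784, 6117, 5925 and 6113 CPM in GF+MEV replicates 1 to 5 and 4606, 4724, 4481, 5088 and 4845 CPM in GF+PBS replicates 1 to 5. The groups did not overlap, and no test was made of this sum. *Slc25a25* and *Slc25a47* together accounted for 1071 of the difference of 1341 CPM between the means, or 79.8%. The 33 members that were not called summed to 3172 ± 55.9 CPM in GF+MEV and 3232 ± 100 CPM in GF+PBS (SD, n = 5 each). *Slc25a25* took 9.83% to 12.8% of the family sum in GF+MEV livers and 2.23% to 4.16% in GF+PBS livers. These sums and shares are of CPM and not of RPKM, so genes with long exons weigh more in them. The exons of *Slc25a25* span 7862 bases, against 2985 for *Slc25a47* and 1646 for *Slc25a5*.

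Ratios of related carriers within a liver do not depend on how libraries were scaled, and the groups were compared in 8 pairs with exact permutation tests, two-sided, which with 5 mice per group cannot give a p below 0.00794. The log2 RPKM ratio of *Slc25a25* to *Slc25a23* was 1.25, 0.75, 0.96, 1.12 and 0.82 in GF+MEV replicates 1 to 5. In GF+PBS replicates 1 to 5 it was -1.52, -1.90, -1.58, -0.81 and -0.85. By RPKM *Slc25a25* was thus the higher of these paralogs in every GF+MEV liver and the lower in every GF+PBS liver. Which of them is higher rests on the exon lengths used (7862 bases for *Slc25a25* and 5294 for *Slc25a23*), and the difference between the groups does not. The difference of 2.31 (SE 0.23) reached the smallest p possible (exact permutation p = 0.00794, n = 5 mice per group), and adjusted over the 8 pairs it was 0.063.

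None of the 8 pairs was past 0.05 after adjustment. A single pair at the smallest p possible has an adjusted exact permutation p of 0.063, so alone it could not pass. For the mitoferrins, *Slc25a37* over *Slc25a28*, the difference was -0.29 (SE 0.10, exact permutation p = 0.040, adjusted 0.143, n = 5 mice per group). For *Slc25a33* over *Slc25a36* it was 0.61 (SE 0.28), and for *Slc25a24* over *Slc25a23* 0.61 (SE 0.28), both with an adjusted exact permutation p of 0.143. *Slc25a10* over *Slc25a11*, both carriers of malate, differed by 0.098 (SE 0.058). The ratios *Slc25a4* over *Slc25a5*, *Slc25a12* over *Slc25a13* and *Slc25a39* over *Slc25a40* differed by -0.013, 0.0064 and -0.089, with SEs of 0.16, 0.083 and 0.18.

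**Figure D4:**
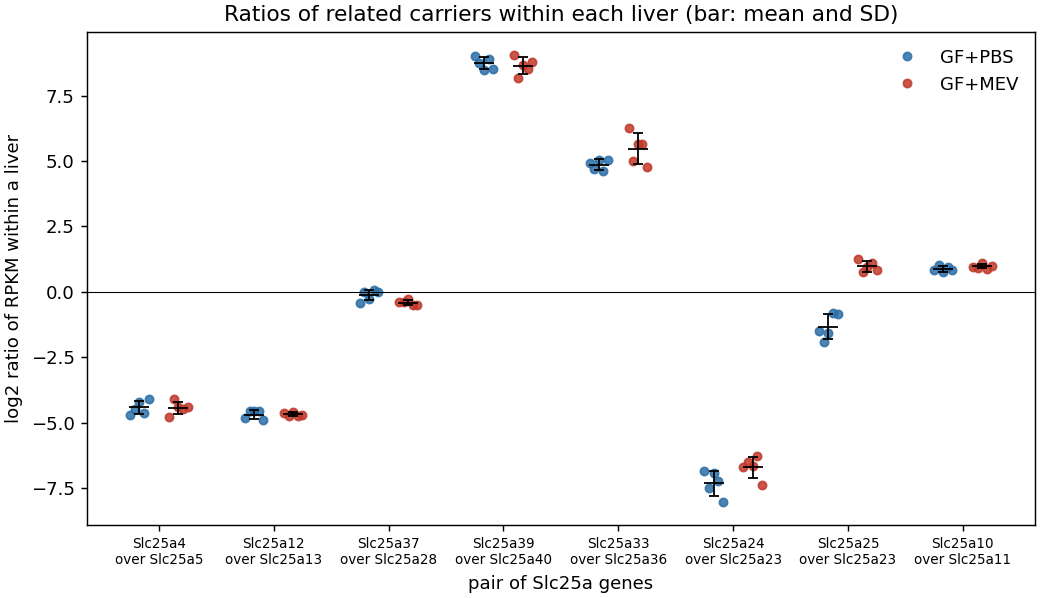
Log2 ratio of RPKM for 8 pairs of related *Slc25a* genes within each liver, with GF+PBS in blue and GF+MEV in red, and bars for the mean and SD of 5 livers. *Slc25a25* over *Slc25a23* is below 0 in all GF+PBS livers and above 0 in all GF+MEV livers, while in the other 7 pairs the groups share part of their range.

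Genes that work beside the carriers were taken from 10 lists, of which 62 genes were tested. The lists were chosen with earlier results of these data known, so their counts of called genes are only a description. By edgeR, 11 of them were called higher and 0 lower, beside 4.12% and 3.52% of all genes tested. At an unadjusted edgeR p under 0.05 there were 14 higher and 4 lower, beside 2572 of all 12147 genes tested in either direction. DESeq2 called 13 higher and 0 lower, and limma-voom 11 and 0. Of the 6 urea cycle genes, 4 were called higher, namely *Cps1* (log2 fold change 0.38), *Ass1* (0.36), *Asl* (0.75) and *Arg1* (0.31). *Otc*, whose enzyme uses the ornithine that ORC1 brings in, was not called (-0.016), nor was *Nags* (-0.19, edgeR adjusted p = 0.089), whose enzyme makes the activator of that of *Cps1*. *Cps1* encodes carbamoyl phosphate synthetase of the matrix, and the other 3 encode cytosolic steps between citrulline and urea.

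Among the malate-aspartate shuttle enzymes 1 of 4 was called, the cytosolic aspartate aminotransferase gene *Got1* (1.27), while the carriers of that shuttle, *Slc25a11*, *Slc25a12* and *Slc25a13*, were not. Of 7 citrate and pyruvate enzymes 1 was called, *Pck1* (1.71), which encodes the PEPCK of gluconeogenesis. Of 5 glutamate enzymes *Gpt2* (0.49), a mitochondrial alanine aminotransferase, was called. *Alas1* (1.51), which begins heme synthesis, was the 1 called gene of 8 in the iron, heme and glutathione list. GF+PBS livers ranged from 169 to 755 CPM in *Alas1*, all under the GF+MEV range of 1020 to 1363 CPM.

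The remaining lists held few called genes. Of 4 carnitine shuttle genes the plasma membrane carnitine transporter *Slc22a5* was called (0.33), and of 8 cofactor enzymes the S-adenosylmethionine synthetase *Mat1a* (0.38). In each of these lists DESeq2 called 2 genes higher and 0 lower. Also higher at an unadjusted edgeR p under 0.05 were *Cpt1a* (0.32, edgeR adjusted p = 0.094) and *Mat2a* (0.29, edgeR adjusted p = 0.065), and 0 genes of these lists were lower at that p. The inner membrane transporters outside the family had 1 called gene of 14, the serine transporter *Sfxn1* (0.27). The family's relatives under other symbols, *Ucp2*, *Mtch1* and *Mtch2*, and the outer membrane channels *Vdac1*, *Vdac2* and *Vdac3* had 0 calls by edgeR, DESeq2 or limma-voom and 0 at an unadjusted p under 0.05.

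**Figure D5:**
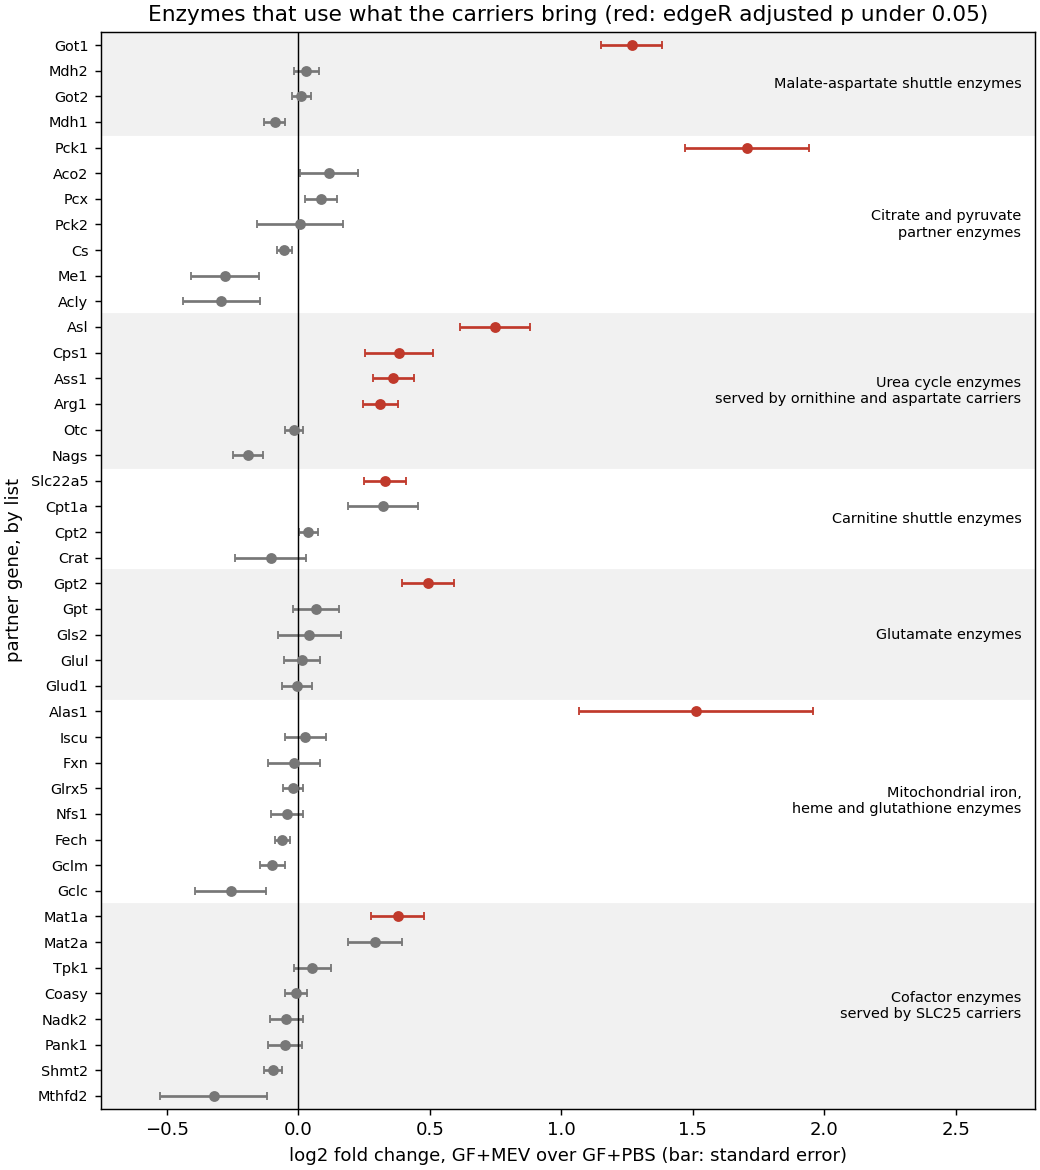
Log2 fold change of GF+MEV over GF+PBS for enzymes and transporters that work beside the carriers, grouped by list, with bars for the standard error and called genes in red. *Pck1*, *Alas1* and *Got1* lie beyond 1.2, 4 of the 6 urea cycle genes are called, and no gene in the plot is called lower.

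The libraries were checked for their cell types, since in whole tissue fewer cells of a type and less RNA per cell cannot be told apart. The 7 hepatocyte markers summed to between 95700 and 116000 CPM in GF+MEV and between 97184 and 113340 CPM in GF+PBS. *Alb* alone had means of 76247 CPM in GF+MEV and 78079 CPM in GF+PBS, so the sums mostly follow that gene. Of the 7 markers, 3 (*Hnf4a*, *Cps1* and *Tat*) were called higher. Of 6 tested Kupffer cell and leukocyte markers *Cd79a* was called lower, with list sums of 122 to 204 CPM in GF+MEV and 144 to 190 CPM in GF+PBS. Of 5 endothelial markers *Lyve1* was called higher and *Clec4g* lower, with sums of 83.8 to 135 CPM and 103 to 137 CPM. The 5 stellate markers had 0 calls by all 3 tools and 1 lower at an unadjusted p under 0.05, with sums of 86.1 to 123 CPM and 78.9 to 106 CPM. Of 3 tested cholangiocyte markers *Krt19* was called higher, with sums of 28.1 to 79.3 CPM in GF+MEV and 23.2 to 29.7 CPM in GF+PBS. At an unadjusted edgeR p under 0.05 only, *Sox9* was lower (log2 fold change -0.98) and *Spp1* higher (0.52). *Spp1* had the highest level of the 3, with means of 35.7 CPM in GF+MEV and 24.8 CPM in GF+PBS. The part of these cells in the *Slc25a* values was not tested.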

How the data were processed

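RNA of 10 germ-free mouse livers, 5 per group and 1 library per mouse, was analysed as one table. With STAR 2.7.3a the authors mapped reads to GRCm38, and with HTSeq they counted them. By their methods they removed genes under 20 counts across samples (over which columns was not settled here), and deposited the raw counts by Ensembl identifier, not normalized. The table also held 5 columns that match no described sample, which were not used. Replicate numbers are those of the sample labels. Of the rows, 12147 of 12148 had at least 20 counts over the 10 livers and were tested. Symbols and exon lengths came from GENCODE vM21, in which 5 identifiers had no symbol.

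Counts were tested with edgeR 4.0.16 in R 4.3.3 (TMM, quasi-likelihood, treatment group alone, Benjamini-Hochberg over all genes tested, threshold 0.05). For standard errors, log2 CPM was taken with 2 prior counts. RPKM divided TMM-scaled CPM by the union of exons. Pair ratios were compared over all labelings of 5 mice against 5. Alternatives were DESeq2 1.42.0, limma-voom (limma 3.58.1), other scalings and filters, a block for replicate numbers, GF+PBS livers summed, and each liver left out. The main edgeR fit, DESeq2 and limma-voom were tested on simulated data, and the other alternatives and the permutation tests were not. In 20 pairs of libraries of the same group the chi-square per gene was at least 6.33, so none was a copy of another.

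Members with a row are named, except 1 that entered all counts, sums and fits and is not reported here. Values per liver were given for called members, and list genes were named where called. *Otc*, *Nags*, *Sox9*, *Lars2*, *Naif1* and list genes that were not called are named beside these by choice after their values were seen. The members and lists were chosen with earlier results of these data known. Promoter sequences came from RefSeq (GRCm38.p6). Protein sequences, and the family's signature motif in them, were not analysed here.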

Additional observations from a re-analysis of the deposited data

Results flagged for a closer look

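In 4 of 96 sets of 5 livers (each member and each pair ratio in each group), 1 liver lay far from the other 4 (Dixon's ratio, 95% critical value for 5 samples). Chance gives about 1 in 20, here 4.8. *Slc25a12* was at 14.4 CPM in GF+MEV replicate 2, where its group otherwise had 17.1 to 18.1 CPM, and this is the library with the low TMM factor of 0.890. *Slc25a36* in GF+PBS replicate 4 had 2.98 CPM, with 2.26 to 2.47 CPM in the other 4 livers. *Slc25a21* was at 8.40 CPM in GF+MEV replicate 3, against 10.4 to 11.2 CPM. *Slc25a23* was at 204 CPM in GF+MEV replicate 1, against 229 to 236 CPM. None of these members was called, and none was called with that liver left out.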

How the results depend on the processing

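The 7 members called higher and 0 called lower were the same genes under all 19 alternatives. Over these, the log2 fold changes ran from 2.09 to 2.34 for *Slc25a25*, 0.94 to 1.11 for *Slc25a51*, 0.80 to 0.94 for *Slc25a32*, 0.76 to 0.89 for *Slc25a47*, 0.57 to 0.69 for *Slc25a33*, 0.54 to 0.66 for *Slc25a22* and 0.34 to 0.46 for *Slc25a15*, whose adjusted p reached 0.0306 with library totals only. Of 627 alternative values for the 33 other members, 0 passed the threshold (lowest adjusted p 0.0561) and 39, in 15 members, changed sign. Over all genes, 561 were called with alike GF+PBS livers summed and 1201 by DESeq2, beside 928. The share of calls that were higher was 53.9%, but 41.2% with upper-quartile factors and 32.5% with library totals only.

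With the replicate block, 7 members were higher and *Slc25a25* had 2.25. No pairing of livers by replicate number was seen, though a check on so few livers cannot exclude it. Correlations of same-numbered deviations ran from -0.188 to 0.166, and 2 of 5 GF+MEV livers matched best with their own number. The block changed no call of a member and called 792 genes of all.

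Leaving out single livers moved the pair differences. *Slc25a4* over *Slc25a5* ran from -0.095 to 0.071, *Slc25a12* over *Slc25a13* from -0.050 to 0.039 and *Slc25a39* over *Slc25a40* from -0.19 to 0.026, so these signs are not settled. *Slc25a37* over *Slc25a28* ran from -0.36 to -0.24 and *Slc25a25* over *Slc25a23* from 2.17 to 2.44. Without GF+PBS replicate 1 both had an adjusted exact permutation p of 0.0317. Both were then at the smallest p possible, and the adjustment over pairs gives tied pairs a lower value than a single pair. With all livers only *Slc25a25* over *Slc25a23* was at that limit, with an adjusted exact permutation p of 0.063. Its difference was 2.26 without GF+PBS replicate 1 and 2.31 with all livers, so the lower adjusted p is not a larger difference. Why *Slc25a37* over *Slc25a28* moved without that liver was not tested. Members under 5 CPM, of which there were 7, rest on few counts (21.4 per liver in *Slc25a24*), which limits what could be detected there.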
